A study of Rattus norvegicus with 10 samples.

Results

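Interferon gamma (IFNγ) signals to the nucleus of a macrophage through a short chain of proteins, and 10 genes of this chain and of the related cytokine routes were followed here. They are the receptor chains Ifngr1 and Ifngr2, the Janus kinases Jak1, Jak2, Jak3 and Tyk2, the transcription factors Stat2, Stat5a and Stat6, and the inhibitor Socs1. A probe set of the array was taken when its only gene symbol in the array annotation was 1 of these 10 names. This gave 10 of the 14217 genes with such a probe set, and 14 of the 31042 probe sets tested, because 4 of the genes (Ifngr2, Jak1, Stat2 and Socs1) have more than 1 probe set.

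The cells were resident peritoneal macrophages of Hsdcpb:WU rats, enriched by adherence, and each sample was measured on 1 Affymetrix rat genome array. In 5 samples they were kept for 3 days with isolated myelin at 100 µg/ml, which was then washed off (mye-macrophages), and in 5 samples they were kept without it (control macrophages). Both groups were next exposed for 9 hours to IFNγ and interleukin 1β (IL-1β) at 100 ng/ml, so all values describe macrophages that had already met IFNγ, and no array without the cytokines was analysed here. The samples of each group are numbered 1 to 5, and each mye-macrophage sample was compared with the control sample of the same number. The labels used here give no age of the rats, and do not tell if every sample stands for its own rat. In the comparison by pairs the p-values measure how the differences vary from pair to pair, and without pairing they measure the spread between samples. Either spread may be technical.

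IFNγ binds a receptor made of IFNGR1, which carries JAK1, and IFNGR2, which carries JAK2. The kinases phosphorylate each other and the receptor, STAT proteins dock and dimerize, and the dimers move to the nucleus and bind short palindromic elements (GAS) in the promoters of genes for antigen presentation and defence against microbes. The other members serve neighbouring routes with shared parts. TYK2 and STAT2 act downstream of the type I interferon receptor, where STAT2 joins IRF9 in a complex that binds another element (ISRE). JAK3 sits on the common gamma chain of the receptors for IL-2, IL-4 and related cytokines, STAT6 carries the IL-4 and IL-13 signal that drives alternative activation of macrophages, and STAT5A carries signals of growth factors such as GM-CSF. SOCS1 is made in response to IFNγ and shuts the kinases off again.

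No gene of the chain passed the test for a difference between mye-macrophages and control macrophages. In a limma fit over all 31042 probe sets, blocked on the replicate number, 0 of the 14 probe sets had a Benjamini-Hochberg adjusted p under 0.05, with adjusted p-values from 0.148 to 0.984, against 128 of all probe sets, or 0.412%. At an unadjusted p under 0.05 the same limma fit held 2 of the 14, a probe set of Stat6 and a probe set of Ifngr2, both lower in mye-macrophages, against 12.1% of all probe sets in either direction and 6.62% in that direction. Without the block, limma called 0 probe sets of the array at an adjusted p under 0.05 and held 1 of the 14 at an unadjusted p under 0.05, against 4.46% of all. In none of the 14 were the groups apart without overlap, which was the case for 0.734% of all probe sets.

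The differences of the 14 probe sets were small in size as well. On the log2 scale they ran from -0.33 to 0.15, 7 above 0 and 7 below, with a median of -0.0035 beside 0.0044 for all probe sets, of which 51.6% lay above 0. The 95% confidence interval of 13 of the 14 lay within a 1.5-fold change in either direction. The exception was an Ifngr2 probe set, whose interval reached down to 0.652 times the control level. The arrays measure RNA of whole cultures, so fewer expressing cells and less RNA per cell cannot be told apart.

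**Figure D1:**
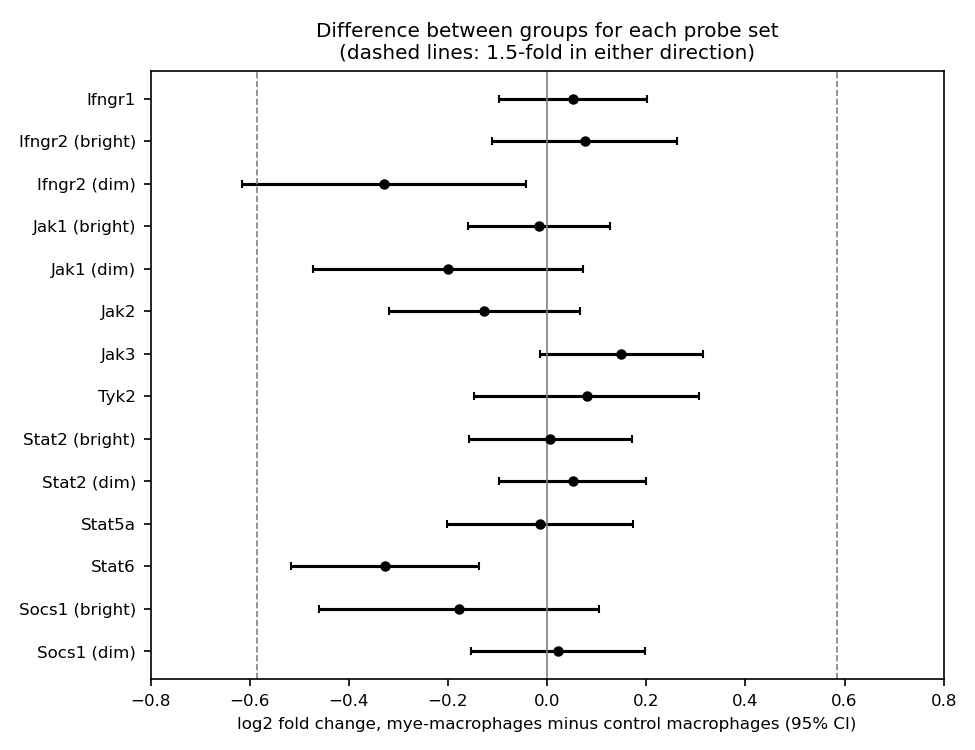
Log2 fold change of each of the 14 probe sets, mye-macrophages minus control macrophages (x axis, log2 units), as points with the 95% confidence interval from limma blocked on the replicate number, 5 pairs. Dashed lines mark a 1.5-fold change; only the interval of the dim Ifngr2 probe set crosses one, and those of Stat6 and of the dim Ifngr2 probe set do not reach 0.

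As a check on the cells, 7 of the 8 measured macrophage markers lay above the median signal of the arrays, which was between 2.30 and 2.35 on the log2 scale, and Cd163 did not. The summed linear signal of these macrophage markers ran from 8107 to 11048 in control macrophages and from 8995 to 11872 in mye-macrophages. For 10 T and NK cell markers the sum ran from 92.0 to 167 and from 88.0 to 200 in the same order, and 0 of 3 B cell markers lay above the median signal. None of the measured markers of macrophages, of T and NK cells, of B cells, of granulocytes and mast cells or of mesothelial cells and fibroblasts passed the test. Of 7 measured oligodendrocyte and myelin genes, read on the brightest probe set of each, Mobp (log2 fold change 3.60, adjusted p = 0.00386 by limma) and Bcas1 (1.76, adjusted p = 0.00667) were higher in mye-macrophages. Mbp differed by -0.20 on its brightest probe set (adjusted p = 0.504), by 3.37 on another (adjusted p = 0.00175) and by -0.04 on the third (adjusted p = 0.942). The part of added myelin RNA in any result below was not tested. The gap between the 3 prime and 5 prime beta-actin control probe sets, which widens as RNA breaks down, was 3.02 ± 0.30 (SD, n = 5) in control macrophages and 3.30 ± 0.32 (SD, n = 5) in mye-macrophages (two-sided exact permutation test, p = 0.190).

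Ifngr1, the chain that binds IFNγ, gave signals of 7.58, 7.33, 7.78, 7.84 and 7.97 in control samples 1 to 5 (log2 RMA signal, as for all levels below). The mye-macrophage samples of the same numbers gave 7.60, 7.46, 7.83, 7.98 and 7.89. Sample 2 was the lowest in both groups, and the 2 groups covered nearly the same range. The log2 fold change was 0.05 (95% CI -0.10 to 0.20, limma adjusted p = 0.810), with 4 of 5 pairs higher in mye-macrophages.

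Ifngr2, the signaling chain that brings JAK2, has 2 probe sets, and they did not behave alike. They are called bright and dim here after their mean signal, which depends on the probes and is not compared between them. The bright probe set gave 8.07, 7.56, 8.14, 8.59 and 8.03 in control samples 1 to 5 and 8.39, 7.75, 8.22, 8.47 and 7.93 in the mye-macrophage samples. Sample 2 was again the lowest and sample 4 the highest in both groups, and the difference was 0.08 (95% CI -0.11 to 0.26, limma adjusted p = 0.775).

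The dim Ifngr2 probe set gave 4.80, 4.19, 4.49, 5.42 and 4.10 in control samples 1 to 5 and 4.07, 3.69, 4.80, 5.04 and 3.77 in the mye-macrophage samples. It was lower in 4 of 5 pairs and higher by 0.30 in pair 3, while the ranges of the groups overlapped over most of their length. The log2 fold change was -0.33 (95% CI -0.62 to -0.04, limma adjusted p = 0.342). Without pair 3 it was -0.49 with a limma adjusted p of 0.0477, the only setting with an adjusted p under 0.05 for any of the 14 probe sets. The array annotation gives both probe sets the same gene symbol, and which transcript stretch each of them reads was not analysed here.

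Jak1, the kinase shared by the IFNγ, type I interferon and IL-4 receptors, also has a bright and a dim probe set. The bright one gave 8.84, 8.68, 8.84, 8.86 and 8.74 in control samples 1 to 5 and 8.78, 8.64, 8.79, 8.91 and 8.77 in the mye-macrophage samples. With all 10 values between 8.64 and 8.91, its standard deviation was 0.08 in control macrophages and 0.09 in mye-macrophages. The difference was -0.02 (95% CI -0.16 to 0.13, limma adjusted p = 0.951).

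The dim Jak1 probe set gave 5.15, 4.85, 4.70, 4.88 and 4.64 in control samples 1 to 5 and 4.49, 4.51, 4.94, 4.96 and 4.32 in the mye-macrophage samples. Pairs 1, 2 and 5 were lower in mye-macrophages and pairs 3 and 4 higher. The log2 fold change was -0.20 (95% CI -0.47 to 0.07, limma adjusted p = 0.559).

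Jak2, the kinase on the IFNGR2 chain, gave 5.71, 5.15, 5.64, 5.72 and 5.14 in control samples 1 to 5. The mye-macrophage samples gave 5.70, 5.20, 5.37, 5.73 and 4.72. Samples 1 and 4 were high and sample 5 low in both groups, and 3 of 5 pairs were lower in mye-macrophages. The difference was -0.13 (95% CI -0.32 to 0.07, limma adjusted p = 0.609).

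Tyk2, the kinase of the type I interferon receptor, gave 5.72, 6.003, 6.41, 6.40 and 6.20 in control samples 1 to 5 and 6.27, 5.83, 6.40, 6.42 and 6.19 in the mye-macrophage samples. In pairs 3, 4 and 5 the 2 values lay within 0.024 of each other, and pair 1 was higher by 0.551 in mye-macrophages. The difference over all pairs was 0.08 (95% CI -0.15 to 0.31, limma adjusted p = 0.808), and without pair 1 it was -0.04.

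Jak3, known mainly from lymphocytes, gave 2.25, 2.09, 2.20, 2.60 and 2.31 in control samples 1 to 5, near the median signal of the arrays. The mye-macrophage samples gave 2.61, 2.21, 2.22, 2.78 and 2.37. Every pair was higher in mye-macrophages, by 0.018 in pair 3 to 0.362 in pair 1, but the ranges of the groups overlapped. The log2 fold change was 0.15 (95% CI -0.01 to 0.31, limma adjusted p = 0.458). Jak3 and Stat6 were the 2 of the 14 probe sets with the same direction in 5 of 5 pairs, which held for 12.8% of all probe sets.

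**Figure D2:**
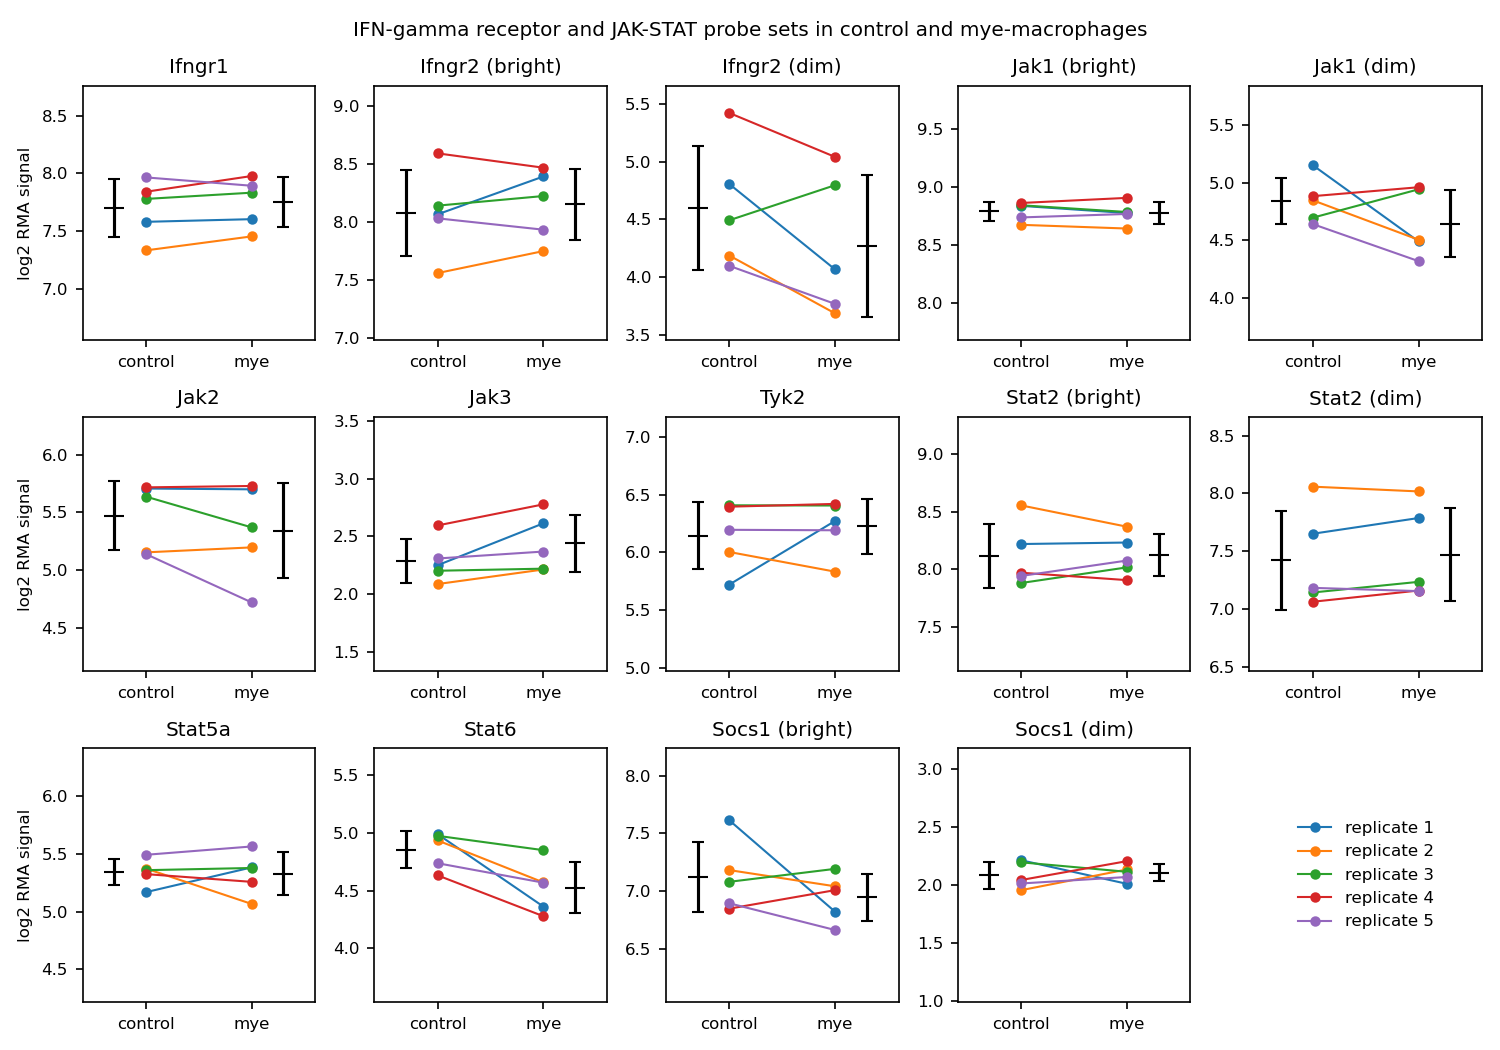
Log2 RMA signal (y axis) of the 14 probe sets in control macrophages and mye-macrophages, with a line for each replicate number and the mean ± SD of each group (n = 5) at the side. All panels span the same number of log2 units; the lines of Stat6 all slope down and those of Jak3 all slope up towards mye-macrophages, while most other panels hold lines in both directions.

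Stat2, the interferon factor that works with IRF9, has 2 probe sets, and neither passed the test. Its bright probe set gave 8.22, 8.55, 7.88, 7.97 and 7.94 in control samples 1 to 5 and 8.23, 8.37, 8.02, 7.91 and 8.08 in the mye-macrophage samples. The difference was 0.01 (95% CI -0.16 to 0.17, limma adjusted p = 0.984), with sample 2 the highest and sample 1 next in both groups.

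The dim Stat2 probe set gave 7.65, 8.06, 7.14, 7.06 and 7.18 in control samples 1 to 5 and 7.79, 8.02, 7.24, 7.16 and 7.16 in the mye-macrophage samples. It repeated the order of the bright one, with sample 2 the highest, sample 1 next and the other three close together in both groups. The difference was 0.05 (95% CI -0.10 to 0.20, limma adjusted p = 0.813).

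Stat5a, the factor downstream of GM-CSF and related cytokines, gave 5.17, 5.37, 5.36, 5.32 and 5.49 in control samples 1 to 5 and 5.38, 5.07, 5.38, 5.26 and 5.56 in the mye-macrophage samples. Sample 5 was the highest in both groups, and pairs 1 and 2 moved in opposite directions. The difference was -0.01 (95% CI -0.20 to 0.17, limma adjusted p = 0.969).

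Stat6, the IL-4 and IL-13 factor, had the lowest p of the 14 probe sets. It gave 4.99, 4.93, 4.97, 4.63 and 4.74 in control samples 1 to 5 and 4.36, 4.57, 4.85, 4.28 and 4.57 in the mye-macrophage samples. Every pair was lower in mye-macrophages, by 0.124 on the log2 scale in pair 3 to 0.626 in pair 1, and the groups overlapped only because mye-macrophage sample 3 lay above control samples 4 and 5. The mean was 4.85 ± 0.16 (SD, n = 5) in control macrophages and 4.53 ± 0.22 (SD, n = 5) in mye-macrophages, a log2 fold change of -0.33 (SE 0.08, 95% CI -0.52 to -0.14), or 1.25-fold lower.

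This difference did not pass the test (limma adjusted p = 0.148). It was at 0.0747 when p-values were adjusted over the more variable 50% of probe sets (by interquartile range), a filter that called 2.69% of the probe sets it kept and 0 of the 11 of these 14 that it kept, and at 0.996 without the block. Without pair 1 the log2 fold change was -0.25 with a limma adjusted p of 0.369.

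The beta-actin gap was wider in mye-macrophages by 0.821 in pair 1, 0.453 in pair 2 and 0.294 in pair 5, about equal in pair 4 and narrower in pair 3 (-0.209). The differences of the same pairs are given beside it. Pair 1 had the largest difference downwards in Stat6, in the dim Ifngr2 and Jak1 probe sets and in the bright Socs1 probe set, and pair 3 had values above 0 in the last 3 of these and the smallest difference in Stat6. Pair 4, with an equal gap, had -0.353 in Stat6 and -0.38 in the dim Ifngr2 probe set, beyond the -0.168 and -0.329 of pair 5, and pair 1 also had the largest difference upwards in Tyk2 (0.551), Jak3 (0.362) and the bright Ifngr2 probe set (0.327). With the gap as a covariate in the blocked limma fit the log2 fold change was -0.22 for Stat6 (adjusted p = 0.716), -0.10 for the dim Ifngr2 probe set, 0.04 for the dim Jak1 probe set and 0.06 for the bright Socs1 probe set. That fit called 3 of all probe sets, against 128 in the fit without the covariate. The part of RNA quality in these values was not tested.

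Socs1, the inhibitor that IFNγ itself induces, is shown with its promoter, since the 250 bases before its start hold both kinds of element through which interferons act. The sequence is that of RefSeq for build GRCr8, chr10:5389324-5389573, plus strand, written 5′ to 3′ and ending at the base before the start, with the matches in capitals.
Socs1: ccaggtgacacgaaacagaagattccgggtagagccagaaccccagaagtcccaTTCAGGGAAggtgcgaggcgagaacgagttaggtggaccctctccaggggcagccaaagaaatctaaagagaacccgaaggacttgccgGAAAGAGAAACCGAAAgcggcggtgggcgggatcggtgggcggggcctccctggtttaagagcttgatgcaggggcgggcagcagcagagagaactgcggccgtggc
The first run in capitals, TTCAGGGAA, matches the GAS letters TTCNNNGAA 196 to 188 bases before the start. The second run holds 2 overlapping matches to the ISRE letters GAAANNGAAA, at 107 to 98 and at 101 to 92 bases before the start.

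Promoters were at hand for 7 of the 10 genes, and those of Jak1, Jak3 and Tyk2 were not analysed here. The only other match among the 7 was in the promoter of Ifngr2, shown because it holds the letters TTCNNNNGAA, with the wider spacing that STAT6 prefers. It lies at chr11:44265453-44265702 of GRCr8, plus strand, with the match in capitals.
Ifngr2: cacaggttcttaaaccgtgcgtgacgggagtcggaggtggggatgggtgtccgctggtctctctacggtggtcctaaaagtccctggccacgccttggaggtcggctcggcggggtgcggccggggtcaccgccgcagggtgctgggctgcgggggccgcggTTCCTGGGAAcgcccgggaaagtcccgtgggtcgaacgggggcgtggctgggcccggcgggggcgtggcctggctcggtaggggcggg
The match TTCCTGGGAA lies 88 to 79 bases before the start. All motifs were searched on both strands, and a match is a run of letters, not a measured binding site.

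Among the 33469 promoters of the same length in the reference, 7.67% held TTCNNNGAA, 6.25% TTCNNNNGAA and 3.41% GAAANNGAAA. Of the 23 promoters found for genes induced by IFNγ, 8 held TTCNNNGAA and 12 GAAANNGAAA, and of the 10 found for genes induced through STAT2 and IRF9, 8 held GAAANNGAAA. Of the 11 found for genes induced through STAT6, 5 held TTCNNNGAA, 1 the wider TTCNNNNGAA and 0 GAAANNGAAA. Socs1 and Ifngr2 were each the only 1 of the 7 with their kind of match, or 14.3%.

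The bright Socs1 probe set gave 7.61, 7.18, 7.08, 6.85 and 6.90 in control samples 1 to 5 and 6.82, 7.04, 7.19, 7.01 and 6.66 in the mye-macrophage samples. Control sample 1 stood highest, and pair 1 alone was lower by 0.79 in mye-macrophages, while pairs 3 and 4 were higher. The log2 fold change was -0.18 (95% CI -0.46 to 0.11, limma adjusted p = 0.629), and without pair 1 it was -0.02. The dim Socs1 probe set, the only 1 of the 14 below the median signal of all probe sets, ran from 1.95 to 2.21 over the 10 arrays with a difference of 0.02 (95% CI -0.15 to 0.20, limma adjusted p = 0.944).

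The variation of these genes was divided between the replicate number and myelin. The sum of squares over the 10 arrays was split into a part for the replicate number, a part for the group and the rest. The replicate number held more than the group in 13 of the 14 probe sets, Stat6 being the exception. It did so in 91.5% of all probe sets as well, and it has 4 degrees of freedom where the group has 1, so this count says nothing particular to these genes. The median share of the replicate number was 79.9% over the 14 probe sets, beside 72.2% over all probe sets above the median signal, and the median share of the group was 2.21% beside 5.82%.

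Single genes spread widely around these medians. The dim Stat2 probe set had 98.6% by replicate number and 0.478% by group, and Ifngr1 had 95.3% and 1.56%. Stat6 had 38.8% by replicate number and 47.2% by group. The dim Socs1 probe set had 27.2% and 1.65%, and the rest of 71.1% could be given to neither.

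**Figure D3:**
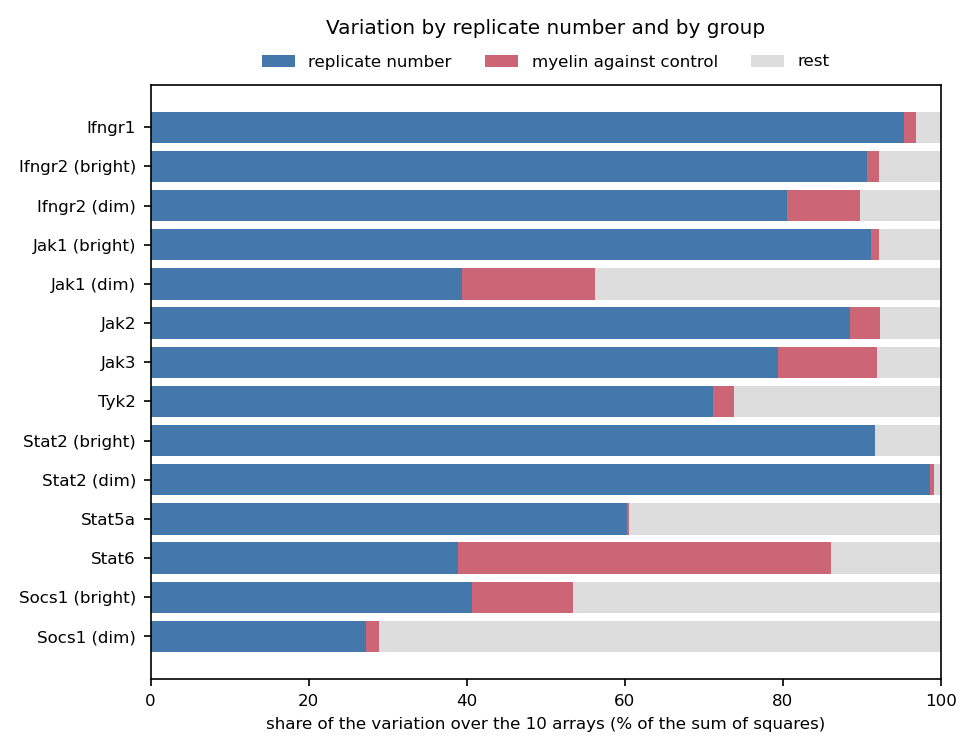
Share of the variation over the 10 arrays (x axis, percent of the sum of squares) held by the replicate number, by the group and by the rest, for each of the 14 probe sets. The replicate number takes the longest bar part in most rows, and Stat6 is the only row in which the group takes more than the replicate number.

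The order of the samples in Stat2 was much the same in the genes that STAT2 and IRF9 switch on, and in part in the genes induced by IFNγ. This was noticed after the values were seen, so it is given as a description. Of the 14 measured genes induced through STAT2 and IRF9, 12 lay above their own mean in control sample 1, 12 in control sample 2, 2 in control sample 3, 1 in control sample 4 and 4 in control sample 5. In the mye-macrophage samples the counts were 12, 11, 7, 2 and 6 in the same order.

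Their median deviation from their own mean was 0.28, 0.49, -0.20, -0.51 and -0.21 in control samples 1 to 5 and 0.59, 0.33, -0.0070, -0.47 and -0.047 in the mye-macrophage samples. Samples 1 and 2 were thus the high ones for both Stat2 and these genes, with and without myelin. Rsad2, an antiviral enzyme, ran from 6.34 in control sample 4 to 10.4 in control sample 2, and from 6.27 in mye-macrophage sample 4 to 10.0 in mye-macrophage sample 2.

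The median deviation of the 24 genes induced by IFNγ was 0.12, 0.13, -0.018, -0.24 and -0.11 in control samples 1 to 5 and 0.28, 0.031, 0.010, -0.20 and -0.12 in the mye-macrophage samples. In sample 1, 21 of these genes lay above their own mean in control macrophages and 23 in mye-macrophages, and samples 4 and 5 were the low ones in both groups. The order was thus not particular to the STAT2 and IRF9 genes.

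Markers of other cells also differed by replicate number. The median deviation of 10 T and NK cell markers was 0.30, 0.12, -0.16, -0.27 and 0.090 in control samples 1 to 5 and 0.50, 0.051, -0.38, -0.28 and -0.17 in the mye-macrophage samples. That of 8 macrophage markers was -0.12, -0.39, 0.042, 0.17 and -0.10, and 0.12, -0.60, 0.12, 0.47 and -0.18. Sample 2 was thus the lowest for macrophage markers in both groups, and sample 1 the highest for T and NK cell markers. The median deviation of 7 granulocyte and mast cell markers was -0.28, -0.62, -0.058, 0.96 and -0.23 in control samples 1 to 5. In the mye-macrophage samples it was 0.10, -0.30, -0.37, 1.07 and -0.26, so sample 4 was the highest in both groups. Only 2 of these 7 markers lay above the median signal. The part of these cells in the spread of Stat2 was not tested.

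**Figure D4:**
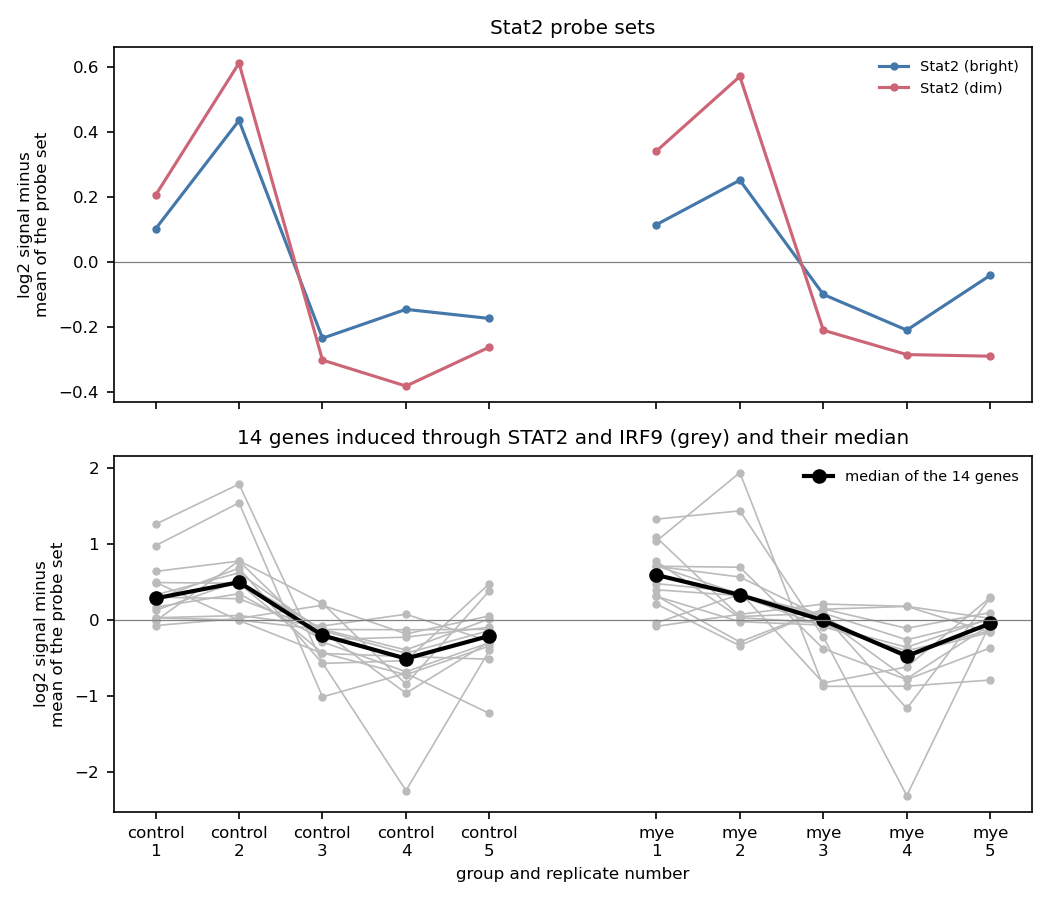
Deviation from the mean of each probe set over the 10 arrays (y axis, log2 units) by group and replicate number (x axis), for the 2 Stat2 probe sets above and for the 14 genes induced through STAT2 and IRF9 below, with their median in black. Samples 1 and 2 lie above 0 and sample 4 lies below it in the medians of both groups.

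The other parts of the route were read from 6 gene lists, with the brightest probe set of each gene. None of their genes passed the test on that probe set, so 0 of 16 measured inhibitors, 0 of 13 receptor chains, 0 of 24 genes induced by IFNγ, 0 of 14 induced through STAT2 and IRF9, 0 of 14 through STAT6 and 0 of 8 through STAT5 were called by limma at an adjusted p under 0.05. Their median log2 fold changes were 0.0039, -0.06, 0.05, 0.06, 0.07 and 0.05 in this order, beside 0.0044 for all probe sets. At an unadjusted p under 0.05 the limma fit held 2 of 16, 6 of 13, 7 of 24, 4 of 14, 5 of 14 and 2 of 8 of their genes, beside 12.1% of all probe sets. That share covers dim probe sets too, while the lists were read on the brightest probe set of each gene. Cish and Socs2 stand in 3 of the lists and Il4r in 2.

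Among the inhibitors other than Socs1, Usp18, which blocks the type I interferon receptor, had a log2 fold change of 0.23 (adjusted p = 0.246), and Ptpn1, a phosphatase of JAK2 and TYK2, had 0.17 (adjusted p = 0.518). Pias3, which binds STAT proteins, had -0.20 (adjusted p = 0.255), and Socs3, the brake on IL-6 signaling, had -0.17 (adjusted p = 0.677). Usp18 was higher in 5 of 5 pairs and Pias3 lower in 5 of 5, and for each of these genes the ranges of the groups overlapped.

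Among the receptor chains that bind Janus kinases, 5 of the 6 genes under an unadjusted p of 0.05 were lower in mye-macrophages, or 5 of 13 measured beside 6.62% of all probe sets lower at that threshold. Ifnar1, a chain of the type I interferon receptor, gave 6.27, 6.51, 6.42, 6.12 and 6.47 in control samples 1 to 5 and 5.89, 5.86, 6.28, 5.89 and 5.92 in the mye-macrophage samples, so that only mye-macrophage sample 3 reached into the control range. Its log2 fold change was -0.39 (limma adjusted p = 0.101), while its other 5 probe sets ran from -0.21 to 0.17. Il6st, the shared chain of the IL-6 family, had -0.30 (adjusted p = 0.179) with groups that did not overlap. The other Il6st probe sets ran from -0.24 to -0.13, and in each of them the groups overlapped. Il4r, the chain through which STAT6 is reached and named here after its values were seen, had -0.22 (adjusted p = 0.215) and was lower in 5 of 5 pairs. Csf2ra, the GM-CSF receptor chain, had 0.23 (adjusted p = 0.300), and Crlf2, a thymic stromal lymphopoietin receptor chain, had 0.10 (adjusted p = 0.622).

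Among the genes induced by IFNγ, 13 had values above 0 and 11 below. Irf1, the early IFNγ-induced transcription factor, differed by -0.0083 (95% CI -0.17 to 0.16), and is given here as a read-out of the route outside the naming rule. Ciita, the master regulator of MHC class II genes, had 0.49 (adjusted p = 0.109) and was higher in 5 of 5 pairs, and Cd74, the invariant chain of MHC class II that CIITA switches on, had -0.38 (adjusted p = 0.138) and was lower in 5 of 5 pairs. Cxcl10, a chemokine for T cells, had 0.29 (adjusted p = 0.230). Ido1, which breaks down tryptophan, had -0.38 (adjusted p = 0.0904), and passed only when adjusted over the variance filter (adjusted p = 0.0452) or over probe sets of higher signal (adjusted p = 0.0487), the 2 filters tried. Its mean signal was 2.61 in control macrophages and 2.23 in mye-macrophages, near the median signal of the arrays.

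Among the genes induced through STAT2 and IRF9, Oas1a, an antiviral RNA sensor, had 0.38 (adjusted p = 0.124) and was higher in 5 of 5 pairs, and Ifit3, an antiviral protein of the same group, had 0.21 (adjusted p = 0.387). The antiviral GTPases Mx2 and Mx1 had -0.20 (adjusted p = 0.343) and -0.12 (adjusted p = 0.618). The other Mx2 probe set went the other way, at 0.11 (limma adjusted p = 0.688). The list thus held values on both sides of 0, as the IFNγ list did.

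Among the genes induced through STAT6, Mrc1, the mannose receptor, gave 1.40, 0.949, 2.49, 4.41 and 2.18 in control samples 1 to 5 and 2.51, 1.22, 3.26, 5.42 and 2.55 in the mye-macrophage samples. Its log2 fold change was 0.71 (limma adjusted p = 0.0530, and 0.0265 over the variance filter), with every pair higher in mye-macrophages and overlapping ranges. The mean signal of Mrc1 was 2.29 in control macrophages, near the median signal of the arrays, and 2.99 in mye-macrophages. Ccl22, a chemokine for regulatory T cells, gave 6.48, 5.50, 7.50, 8.16 and 7.69 in control samples and 6.30, 5.35, 6.38, 7.07 and 6.55 in the mye-macrophage samples. It was lower in 5 of 5 pairs, at -0.73 (limma adjusted p = 0.0968, and 0.0484 over the variance filter), and its other probe set passed the main test at -0.92 (limma adjusted p = 0.0421).

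The remaining genes named from the STAT6 list were Ccl24, an eosinophil chemokine, at -0.71 (adjusted p = 0.129) and Tgm2, a transglutaminase, at 0.22 (adjusted p = 0.255). The list held 8 values above 0 and 6 below. Without the block, the value of Mrc1 ran from 0.10 without mye-macrophage sample 4 to 1.24 without control sample 4.

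Among the genes induced through STAT5, Pim1, a survival kinase, had 0.26 (adjusted p = 0.409), and Cish, an inhibitor of STAT5, had 0.11 (adjusted p = 0.853). The other Cish probe set went the other way, at -0.15 (limma adjusted p = 0.714). Osm, a cytokine of the IL-6 family, had -0.22 (adjusted p = 0.250), and Lta, lymphotoxin alpha, had -0.16 (adjusted p = 0.656). The mean signal of Lta, 1.19 in control macrophages and 1.03 in mye-macrophages, lay below the median signal of the arrays.

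**Figure D5:**
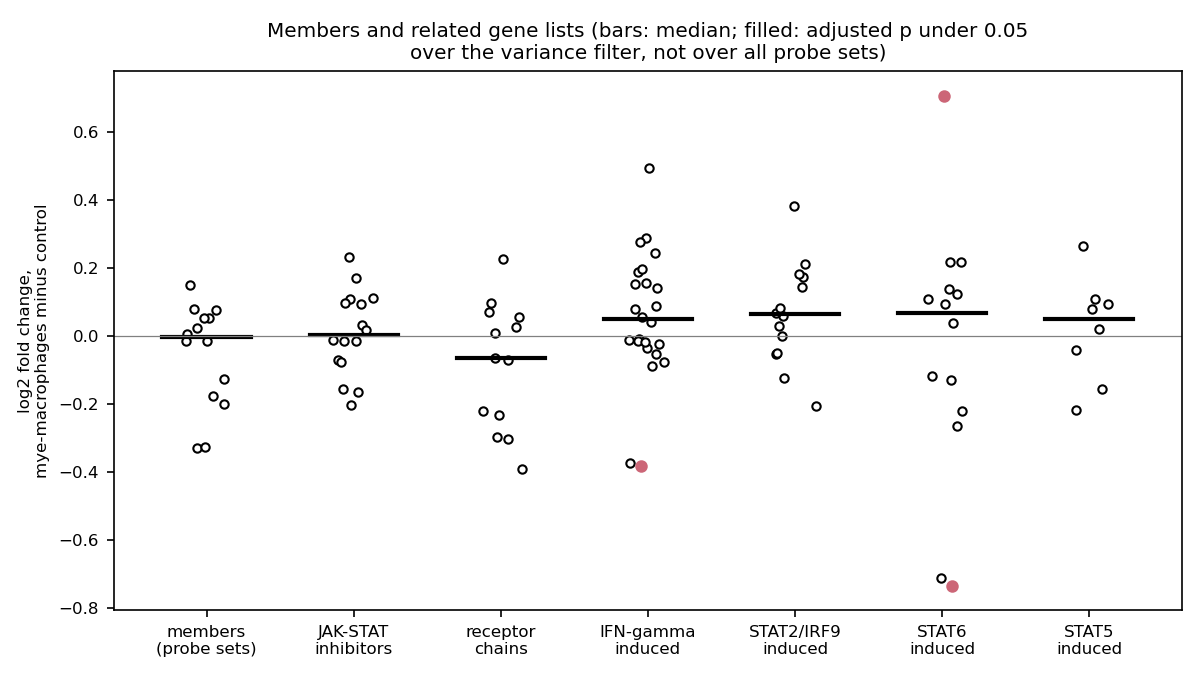
Log2 fold change, mye-macrophages minus control macrophages (y axis), of the 14 probe sets and of the genes of 6 related lists (x axis), each point a probe set or the brightest probe set of a gene, with the median as a bar. Filled points (Ido1, Mrc1 and Ccl22) have an adjusted p under 0.05 over the variance filter but not over all probe sets; the medians all lie between -0.06 and 0.07.

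The probe sets whose values over the 10 arrays were most like those of Stat6 were sought among all others with 1 gene symbol and a mean above the median. They were Fam204a (Pearson r = 0.954), Zfhx3 (0.952), Laptm4a (0.948), Dhx36 (0.947) and Strn3 (0.936), each over 10 arrays that share their groups and replicate numbers. Their own log2 fold changes were -0.36, -0.25, -0.33, -0.64 and -0.43, with limma adjusted p-values of 0.147, 0.272, 0.254, 0.0569 and 0.0546. All 5 were lower in mye-macrophages and none passed the test. They were picked for likeness to Stat6 over both groups, so this direction follows largely from the choice and is no separate result.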

How the data were processed

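For 10 Affymetrix rat arrays the authors deposited log2 RMA values, made from the scanner files with the affy package (version not given in the sources used here). RMA corrects the background, equalizes the arrays and summarizes the probes of a set. Array medians were low for RMA values (2.30 to 2.35), for a reason not given. Affymetrix controls (57 probe sets) were dropped, and 31042 were tested, of which 20826 had 1 gene symbol, 436 several and 9780 none. Genes were named only from probe sets with 1 symbol.

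Comparisons used limma 3.58.1 under R 4.3.3 (lmFit, eBayes, Benjamini-Hochberg over all 31042 probe sets, threshold 0.05), with the replicate number as a block, since the genes are compared in pairs. The methods name an unpaired test after a variance filter of 50%; both are among the alternatives. The labels' numbers pair the samples: deviations from the group means correlated at 0.404 to 0.791 for the same number and at most at 0.279 across numbers. What the numbers stand for is not given in the sources used here. All 14 probe sets of the 10 genes are named; from each list, the genes that passed and the 2 largest differences in each direction on the brightest probe set; and the 5 probe sets most like the one with the lowest p. Irf1, Il4r and Rsad2 lie outside this rule and were chosen after their values were seen. The genes and lists were chosen with earlier results of these data known. The number of arrays limits the precision. Fits were tested on simulated data. Promoters were taken from RefSeq (GRCr8), 250 bases before the start. The alternatives were the block, 2 filters, the methods' t-test, a paired test of each probe set alone, 2 normalizations, array weights, a trended robust prior, the beta-actin gap as a covariate, and each pair or sample left out.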

Additional observations from a re-analysis of the deposited data

How the results depend on the processing

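Over the 14 probe sets, 148 of 154 fold changes under 11 settings kept their direction and their side of the threshold, leave-outs apart. This count is in part fixed by the design. The fold change itself is the same without the block, over the filters, by the t-tests, paired or not, and with the trended prior. Its direction could turn only under the normalizations, the array weights and the beta-actin covariate. A probe set that a filter left out was counted as not called. With quantile normalization Stat5a turned to 0.019. In the fit that takes the beta-actin gap as covariate the bright Ifngr2 probe set turned to -0.012, the dim Jak1 one to 0.042, Tyk2 to -0.033, the bright Socs1 one to 0.061, Socs3 to 0.034 and Cish to -0.10; the cause was not tested. Of 264 fold changes of the named list genes under these settings, 17 gained a call: Ido1 and Mrc1 over both filters and Ccl22 over the variance filter, Mrc1 and Ccl22 with array weights, Usp18, Ifnar1, Il6st, Cd74, Ciita, Mrc1 and Tgm2 with a trended robust prior, and Ifnar1, Il6st and Ido1 by the methods' t-test at its unadjusted threshold. The number of the 14 called was 1 (Stat6) by the methods' t-test at its unadjusted threshold and 0 to 1 with a pair or sample left out (the dim Ifngr2 probe set without pair 3), and 0 under the other settings. The replicate block changed no call of the 14, since 0 were called without it as well. Of all probe sets, 128 were called, against 0 without the replicate block, 418 over the variance filter, 337 over the filter on low signal, 0 by the methods' t-test after Benjamini-Hochberg and 1437 before it, 0 by the paired test of each probe set alone, 239 with array weights, 648 with a trended robust prior and 3 with the beta-actin gap. With a pair left out of the blocked fit the count was 15, 11, 300, 25 and 14 without pairs 1 to 5. With a sample left out of the fit without the block it was 0 to 1.

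Some fold changes changed sign when a pair was left out of the blocked fit or a sample out of the fit without the block. They ran from -0.039 to 0.13 for Ifngr1, -0.054 to 0.20 for the bright Ifngr2 probe set, -0.049 to 0.018 for the bright Jak1 one, -0.22 to 0.028 for Jak2, -0.038 to 0.18 for Tyk2, -0.056 to 0.12 for the bright and -0.085 to 0.21 for the dim Stat2 one, -0.072 to 0.059 for Stat5a and -0.017 to 0.079 for the dim Socs1 one. For list genes they ran from -0.85 to 0.12 for Cd74, -0.28 to 0.067 for Mx1, -0.44 to 0.060 for Mx2, -0.24 to 0.37 for Cish, -0.081 to 0.55 for Usp18, -0.0081 to 0.86 for Ciita and -0.059 to 0.24 for Crlf2. Stat6 ran from -0.41 to -0.25 and kept its sign. With pairs left out of the blocked fit, only Tyk2, Stat5a, the bright Stat2 and dim Socs1 probe sets and Cish changed sign. In those fits Cd74 ran from -0.44 to -0.30, Ciita from 0.36 to 0.565 and Usp18 from 0.18 to 0.27.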
